A study of Mus musculus with 35 samples.

Results

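Expression of 10 genes of the Wnt pathway was followed in whole lungs of mice that had or lacked caveolin-1. The genes are the secreted inhibitors Dkk2, Dkk3, Sfrp1, Sfrp2, Frzb and Wif1, the ligands Wnt5a and Wnt9a, and the beta-catenin target genes Axin2 and Lef1. They were chosen by name and are 10 of the 54532 genes in the count table. Control mice were wild-type B6/129SJ2, Cav1-KO mice carried the global Cav1tm1Mls/J knockout, and Cav1-RC mice lacked Cav1 everywhere except in endothelial cells, where its expression had been restored. Females and males, all adults of at least 3 months, spent 6 weeks in normoxia or in hypoxia at 10% O2. This gave 12 groups of 3 libraries each, apart from the normoxic females of both Cav1-KO and Cav1-RC with 2 libraries a group, and 34 libraries in all. The promoter that drives Cav1 in the Cav1-RC line is not given in the sources used here, and this line came from another laboratory, so effects of its genetic background and of endothelial Cav1 cannot be told apart. Cav1-KO and Control mice were originally purchased and are not described as littermates. Effects of genetic background and of Cav1 loss therefore cannot be told apart between them either.

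Wnt proteins are secreted signals that bind Frizzled receptors and LRP5 or LRP6 co-receptors at the cell surface. In the canonical branch this stabilizes beta-catenin, which enters the nucleus and switches on target genes with TCF and LEF factors, and in other branches it steers cell polarity and calcium signaling without beta-catenin. Secreted inhibitors act at 2 points, since Dickkopf proteins such as DKK2 bind the LRP co-receptors while SFRP proteins, FRZB and WIF1 bind the Wnt ligands themselves. In the lung, Wnt signals guide branching and alveolar formation, and in the adult they are known for alveolar type 2 cell renewal and for remodeling of the pulmonary vessel wall.

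The libraries held 12425535 to 33343006 counts (median 18015172). Cav1 stood at 284 to 394 FPKM (fragments scaled by gene length and library size) in the 12 Control libraries, at 0.461 to 1.13 FPKM in the 11 Cav1-KO libraries and at 0.423 to 1.89 FPKM in the 11 Cav1-RC libraries, so Cav1 reads did not separate Cav1-RC from Cav1-KO. None of 10 endothelial, 7 alveolar type 1 and 7 alveolar type 2 marker genes was at 0 in all libraries. Xist reached 752 to 874 CPM (counts scaled to library size) in 3 libraries labelled male, namely male Cav1-RC normoxia replicates 1 and 2 and male Control hypoxia replicate 2, against 0.371 to 4.27 CPM in the 15 other male libraries and 363 to 1011 CPM in the female libraries. The Y genes Ddx3y, Eif2s3y, Kdm5d and Uty summed to 0, 0 and 1.07 CPM in these 3 libraries. In the 15 other male libraries they summed to 182 to 345 CPM. Female libraries had 0 to 17.5 CPM, highest in female Cav1-KO hypoxia replicate 2. On both measures the 3 libraries lay with the female ones, and they were grouped by label. Of the 34 mice, 12 also appear by animal number on the study's list for the CAV1 western blots. These 12 are all 3 of male Control hypoxia, of female Cav1-KO hypoxia and of male Cav1-KO hypoxia, and replicate 1 of female Control normoxia, of female Control hypoxia and of female Cav1-RC normoxia. On the first principal component, which held 29.5% of the variance over 19870 genes, they lay between -89.2 and -43.4 and the other 22 between -5.12 and 63.6. All 6 Cav1-KO hypoxia libraries are on this list and no Cav1-RC hypoxia library is. The list and the genotype therefore cannot be told apart within that comparison. The same holds for list and genotype between Cav1-RC males and Control males in hypoxia. Between oxygen levels, list and hypoxia cannot be told apart within Cav1-KO or within Control males. Values from a fit to all 34 libraries with a term for the list (the list term below) are therefore given beside the results. That fit assumes that the list shifts a gene equally in every group. Only 3 groups, all female and none Cav1-KO, hold both listed and unlisted libraries, each with 1 listed library. The size of the shift could therefore not be checked within any Cav1-KO or male group.

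The promoters of Dkk2, Sfrp2 and Wnt9a are shown because Dkk2 and Sfrp2 were called in the most comparisons of the 10 genes and Wnt9a was the only ligand gene among them that passed both the fold and the adjusted p threshold in any of the 27 comparisons of 2 groups. Each sequence is the 250 bases before the annotated RefSeq start on build GRCm38.p6, in lower case, with capitals on the letters of the motifs searched.
Dkk2 (chr3:132085042-132085291, + strand): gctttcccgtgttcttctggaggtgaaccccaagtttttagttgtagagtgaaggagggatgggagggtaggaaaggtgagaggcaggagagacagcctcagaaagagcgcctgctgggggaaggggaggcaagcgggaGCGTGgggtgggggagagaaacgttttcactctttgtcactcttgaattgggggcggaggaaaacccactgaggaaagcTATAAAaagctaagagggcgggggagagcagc
Sfrp2 (chr3:83766071-83766320, + strand): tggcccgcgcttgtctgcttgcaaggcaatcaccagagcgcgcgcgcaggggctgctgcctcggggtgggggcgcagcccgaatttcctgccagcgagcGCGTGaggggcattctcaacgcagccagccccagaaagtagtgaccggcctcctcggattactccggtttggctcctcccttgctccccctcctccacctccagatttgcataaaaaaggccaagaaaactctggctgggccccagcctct
Wnt9a (chr11:59306680-59306929, + strand): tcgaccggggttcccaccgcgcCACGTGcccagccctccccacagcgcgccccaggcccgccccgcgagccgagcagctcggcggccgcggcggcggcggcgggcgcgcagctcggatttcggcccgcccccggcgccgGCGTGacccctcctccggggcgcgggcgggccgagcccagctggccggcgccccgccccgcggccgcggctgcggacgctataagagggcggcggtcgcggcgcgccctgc
The motifs were the TCF/LEF core (CTTTGAT or CTTTGAA), the core bound by hypoxia-inducible factors (ACGTG or GCGTG) and the TATA box (TATAAA), searched on both strands from 250 bases before to 50 bases after the start. ACGTG read on both strands overlaps itself as CACGTG, which is 1 site printed once. Dkk2 held GCGTG at position -111 and TATAAA at position -32, with positions counted in bases from the start. Sfrp2 held GCGTG at -151, and Wnt9a held ACGTG at -228 and -227 on opposite strands and GCGTG at -111. The Wnt9a window was 83.3% G or C, the Sfrp2 window 66.0% and the Dkk2 window 57.7%. Entries existed for 7 of the 10 genes, with 10 windows because Lef1 has several starts, and Dkk3, Sfrp1 and Wnt5a had none. None of the 7 genes held the TCF/LEF core, which 8.6% of 32841 promoter windows held, and 5 held the hypoxia core, which 43.8% of all windows held. TATAAA was in 13.6% of all windows, and besides Dkk2 the Wif1 window and 1 Lef1 window held it on the other strand, at -232 and -231. A match only says that these letters are in the window.

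Levels were compared between genes per gene length, in FPKM. Dkk3 was the most abundant, at 29.9 to 55.1 FPKM over the 34 libraries, followed by Sfrp2 at 5.14 to 38.0 FPKM. Axin2 (5.16 to 9.48 FPKM), Sfrp1 (2.92 to 10.1), Wnt9a (2.33 to 7.76), Wnt5a (1.91 to 4.99) and Wif1 (1.18 to 5.29) lay in between. Lef1 stood at 0.60 to 2.16 FPKM, Dkk2 at 0.139 to 2.04 FPKM (7 to 171 counts) and Frzb at 0 to 0.450 FPKM (0 to 34 counts, with 3 counts or fewer in 7 libraries). Dkk2 and Frzb therefore carried the most counting error. Across the libraries the highest Dkk2 level was 14.7 times the lowest and the highest Axin2 level 1.84 times the lowest.

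A gene was called in a comparison when the absolute log2 fold change was above 1 and the adjusted p, from edgeR's quasi-likelihood test with Benjamini-Hochberg adjustment over all genes tested, was under 0.05. With both sexes in 1 fit, Cav1-KO against Control called Sfrp2 alone of 9 genes tested in normoxia, where 5.78% of all genes were called, and Dkk2 alone of 10 in hypoxia, where 4.14% were called. Cav1-RC against Cav1-KO called none of 10 in normoxia against 4.28% of all genes, with 3 of the 10 at an unadjusted p under 0.05. In hypoxia it called 4 of 10, with Sfrp2 and Frzb higher and Dkk2 and Wif1 lower, against 14.7% of all genes, and with the list term Dkk2 alone remained called, against 3.45%. Cav1-RC against Control called none of 10 in normoxia, against 2.28% of all genes called, and 5 of the 10 had an unadjusted p under 0.05. In hypoxia it called 3 of 10, with Sfrp2 and Frzb higher and Dkk2 lower, against 3.73%, and with the list term Sfrp2 and Dkk2, against 2.78%. Hypoxia against normoxia called none of 9 in Control against 0.846%, with 2 of the 9 at an unadjusted p under 0.05. It called none of 9 in Cav1-KO, although 7 of the 9 passed the adjusted p alone, against 17.6% of all genes called and 61.7% past the adjusted p. In Cav1-RC it called Sfrp2 alone of 10, against 1.22%. DESeq2 called the same number of the 10 genes as edgeR in each of these 9 comparisons. Counted by libraries that did not overlap between the groups compared, 4 of 9 genes stood apart in Cav1-KO against Control in normoxia (11.6% of all genes did) and 0 of 10 in hypoxia (4.49%). The same counts were 3 of 10 in normoxia (10.5%) and 4 of 10 in hypoxia (28.5%) for Cav1-RC against Cav1-KO, and 1 of 10 (4.57%) and 3 of 10 (3.14%) for Cav1-RC against Control. For hypoxia against normoxia they were 0 of 9 in Control (1.8%), 3 of 9 in Cav1-KO (41.7%) and 2 of 10 in Cav1-RC (3.49%). Genotype comparisons within 1 oxygen level share their libraries, so these counts are not independent of each other. The share of all genes at an unadjusted p under 0.05 is not given here or below. Counts of genes at that threshold therefore have no background beside them. Shares called with the list term are given over both sexes for Cav1-RC against Cav1-KO and against Control in hypoxia. They are not given for the other comparisons of 2 groups, so counts with the list term have no background there either.

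**Figure D1:**
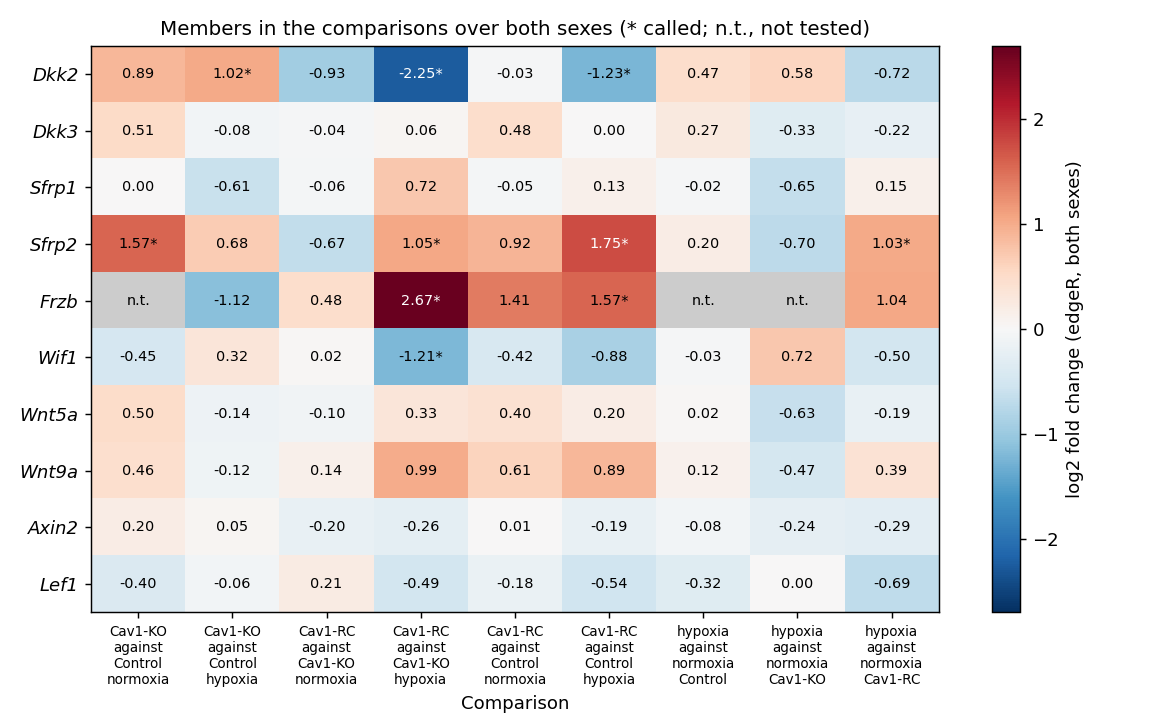
Log2 fold change of each gene (rows) in the 9 comparisons over both sexes (columns), from edgeR, with red for higher and blue for lower in the first-named group, an asterisk for called and n.t. for too few counts to be tested. Dkk2 is at -2.25 and Frzb at 2.67 in Cav1-RC against Cav1-KO in hypoxia, and the Axin2 row stays between -0.29 and 0.20.

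DKK2 binds LRP5 and LRP6 and, depending on the co-receptors present, blocks or weakly activates canonical signaling. The Dkk2 gene (ENSMUSG00000028031) lies at chr3:132085292-132180304 on mm10. In normoxia, Dkk2 was 0.454, 0.547 and 0.499 FPKM in the 3 female Control libraries and 0.332, 0.324 and 0.221 FPKM in the 3 male Control libraries. Normoxic Cav1-KO libraries were at 0.665 and 0.888 FPKM in females and at 0.641, 0.606 and 0.723 FPKM in males, all above all 6 normoxic Control libraries. Normoxic Cav1-RC libraries were at 0.197 and 0.525 FPKM in females and at 0.255, 0.463 and 0.434 FPKM in males, all below all 5 normoxic Cav1-KO libraries and within the Control range or just under it. In hypoxia, Control libraries were at 0.497, 0.368 and 0.374 FPKM in females and at 0.652, 0.648 and 0.717 FPKM in males. Hypoxic Cav1-KO females had the highest group mean, with 1.07, 1.57 and 2.04 FPKM, whereas hypoxic Cav1-KO males were spread from 0.407 over 0.557 to 1.30 FPKM and overlapped the male Control libraries. Hypoxic Cav1-RC lungs had the lowest group means, with 0.139, 0.216 and 0.289 FPKM in females and 0.248, 0.171 and 0.280 FPKM in males, below all 12 hypoxic libraries of the other genotypes. The group means ran from 1.56 FPKM in hypoxic Cav1-KO females to 0.215 FPKM in hypoxic Cav1-RC females, a 7.27-fold range, and of the 11 pairs of neighbouring groups in that order 2 did not overlap.

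**Figure D2:**
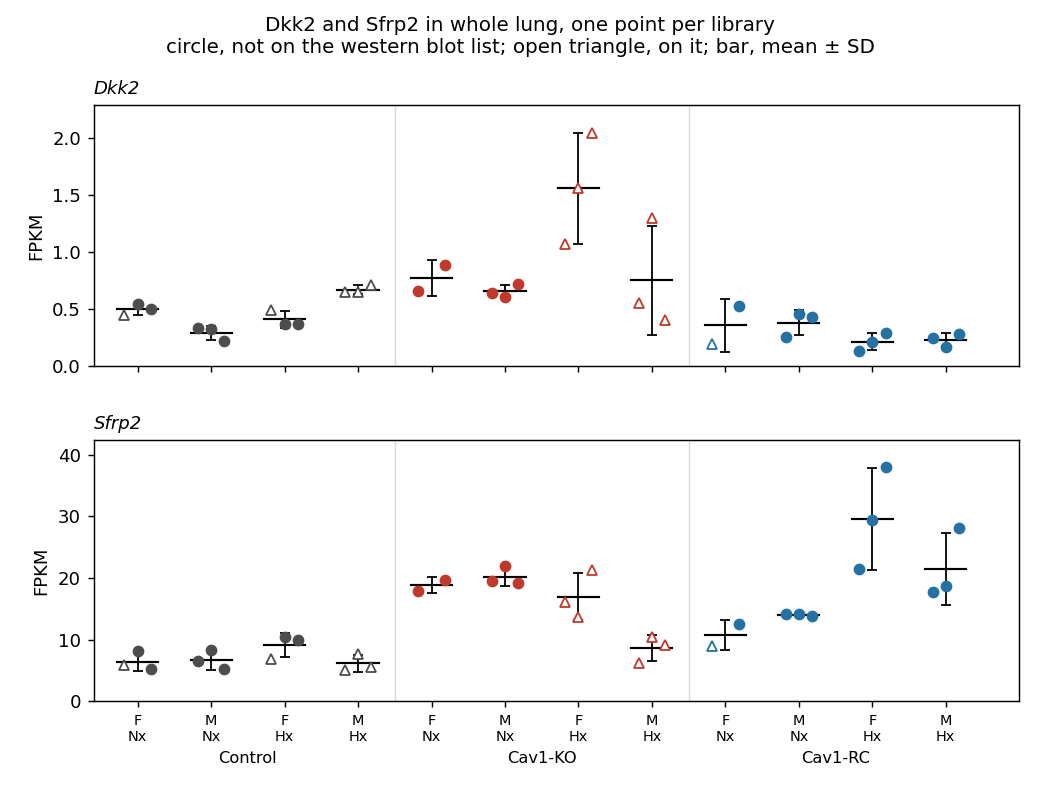
Dkk2 and Sfrp2 in FPKM (vertical axes, from 0) for each library, by genotype, sex (F, M) and oxygen (Nx, normoxia; Hx, hypoxia), with circles for libraries outside the western blot list, open triangles for those on it, and bars for the group mean ± SD. Among hypoxic lungs, Cav1-RC libraries have the lowest Dkk2 (0.139 to 0.289 FPKM) and reach the highest Sfrp2 (17.6 to 38.0 FPKM).

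Over both sexes, the largest Dkk2 difference was between Cav1-RC and Cav1-KO in hypoxia. Dkk2 was lower in Cav1-RC by a log2 fold change of -2.25 (SE 0.33, adjusted p = 0.00015, edgeR), which is 4.77-fold, and it was called whichever of the 12 libraries was left out (-2.41 to -1.95). Under the list term the value was -2.47 (adjusted p = 0.0014). Taken by sex and without the term, the hypoxic difference was -2.84 (SE 0.40, adjusted p = 0.0048) in females and -1.68 (SE 0.48, adjusted p = 0.021) in males. The male call was lost without Cav1-RC replicate 1 (-1.72), 2 (-1.5) or 3 (-1.81). The summed FPKM of 8 arterial endothelial markers, with Gja4 and Cxcl12 the most abundant and none at 0, was 283 to 359 in hypoxic Cav1-KO and 208 to 280 in hypoxic Cav1-RC, with 2 of the 8 called lower. Other marker lists moved in the same comparison, in which 14.7% of all genes were called. The sums of 14 fibroblast markers were 940 to 1228 FPKM in hypoxic Cav1-KO and 1254 to 1715 FPKM in hypoxic Cav1-RC, without overlap. By sex, 3 of the 14 were called higher and 1 lower in females (8.98% of all genes called). In males 3 were called higher and 0 lower (14.8%). Of 6 mesothelial markers 4 were called higher, with sums of 48.6 to 99.0 FPKM in hypoxic Cav1-KO and 95.7 to 173 FPKM in hypoxic Cav1-RC, and of 10 T cell markers 5 were called higher, with sums of 14.2 to 29.2 and 26.2 to 43.8 FPKM. Of 9 cardiac muscle markers 4 and of 7 alveolar type 2 markers 3 were called higher, and of 7 erythroid markers 4 were called lower, with sums of 2062 to 27618 FPKM in Cav1-KO and 499 to 11874 FPKM in Cav1-RC. The part of these lists in the Dkk2 difference, and in the other differences between these groups, was not tested. In whole lung, fewer cells of a type and less RNA per cell cannot be told apart.

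Dkk2 was also lower in Cav1-RC than in Control in hypoxia, by a log2 fold change of -1.23 (SE 0.25, adjusted p = 0.015), with no overlap between the 6 libraries of each. It was called without each of the 12 libraries in turn (-1.38 to -1.12), with the list term (-1.39, adjusted p = 0.021) and without male Control hypoxia replicate 2, whose Xist goes against its label (-1.24). By sex the difference was -1.54 (SE 0.31, adjusted p = 0.0063) in males, where the list term gave -1.76 with an adjusted p of 0.12, and -0.92 (SE 0.41, adjusted p = 0.63) in females. In normoxia, Cav1-RC and Control differed by -0.03 (SE 0.30, adjusted p = 0.98).

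Cav1-KO had more Dkk2 than Control by 0.89 (SE 0.19, adjusted p = 0.013) on the log2 scale in normoxia, which passed the adjusted p and not the fold threshold, and it did pass both without female Cav1-KO normoxia replicate 1 (1.00). In males alone it was called at 1.17 (SE 0.26, adjusted p = 0.026), and this call held without male Control normoxia replicate 1 only and was lost without any other of the 6 libraries (0.99 to 1.24). In hypoxia the value over both sexes was 1.02 (SE 0.29, adjusted p = 0.037). That call held without replicate 1 of female Control hypoxia, replicate 1 of female Cav1-KO hypoxia or replicate 3 of male Cav1-KO hypoxia and was lost without any other of the 12 libraries, with the lowest value, 0.71, without male Cav1-KO hypoxia replicate 2. It was also lost when the high-Xist library among the male Controls was dropped (1.00, adjusted p = 0.069), and among the 10 listed libraries alone (0.88, adjusted p = 0.23). Under hypoxia the female value was 1.90 (SE 0.34, adjusted p = 0.061) and the male value 0.13 (SE 0.44, adjusted p = 0.90), and the difference between them, 1.76 (SE 0.57), had an adjusted p of 0.26. The female value was called with the list term (2.02), by DESeq2 (1.89) and without female Control hypoxia replicate 1 (2.07). In this hypoxic comparison over both sexes 6 of 7 erythroid markers were called higher in Cav1-KO, with a median sum of 7301 FPKM against 1616 FPKM in Control, and 3 of 10 T cell markers were called lower, and their part was not tested.

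Hypoxia against normoxia raised Dkk2 past both thresholds in Control males, at 1.21 (SE 0.30, adjusted p = 0.035). All 3 of these hypoxic libraries are on the western blot list and none of the normoxic ones is, the list term gave 1.44 with an adjusted p of 0.13, and the call held without male Control hypoxia replicate 2 only (1.03 to 1.31 without the others). Cav1-KO females were at 1.01 (SE 0.34, adjusted p = 0.053), which DESeq2 called (1.00, adjusted p = 0.024). Control females were at -0.29 (SE 0.36), and the difference between the sexes, -1.47 (SE 0.42), had an adjusted p of 0.28. Over both sexes the values were 0.47 (SE 0.21, adjusted p = 0.35) in Control, 0.58 (SE 0.29, adjusted p = 0.11) in Cav1-KO and -0.72 (SE 0.34, adjusted p = 0.34) in Cav1-RC.

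Dkk3, a Dickkopf relative that does not bind LRP6 the way DKK2 does, changed far less. It was 29.9 to 38.3 FPKM in the 6 normoxic Control libraries and 44.1 to 51.3 FPKM in the 5 normoxic Cav1-KO libraries, which did not overlap. The log2 fold change was 0.51 (SE 0.07, adjusted p = 0.0016), and 0.48 (adjusted p = 0.00053) with the list term, under the fold threshold in both. In hypoxia Cav1-KO and Control overlapped, at 33.2 to 42.8 and 30.7 to 51.3 FPKM, with a log2 fold change of -0.08 (SE 0.10, adjusted p = 0.61). In the other comparisons over both sexes Dkk3 lay between -0.33 and 0.48.

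SFRP2, a secreted Frizzled-related protein that binds Wnt ligands, had its gene (ENSMUSG00000027996) at chr3:83766321-83774316. In normoxic Control lungs Sfrp2 was 5.95, 8.10 and 5.18 FPKM in females and 6.46, 8.25 and 5.23 FPKM in males. Normoxic Cav1-KO lungs had 17.9 and 19.7 FPKM in females and 19.5, 22 and 19.2 FPKM in males, and normoxic Cav1-RC lungs had 8.99 and 12.5 FPKM in females and 14.2, 14.1 and 13.8 FPKM in males. The 3 genotypes did not overlap in normoxia, with Control lowest, Cav1-RC in between and Cav1-KO highest. Hypoxic Control lungs were at 6.90, 10.4 and 9.94 FPKM in females and 5.14, 7.69 and 5.62 FPKM in males. Hypoxic Cav1-KO lungs were at 16.1, 13.6 and 21.2 FPKM in females and at 6.24, 10.4 and 9.17 FPKM in males, so that the males overlapped Control and the females did not. Hypoxic Cav1-RC lungs had the highest group means, with 21.4, 29.3 and 38.0 FPKM in females and 17.6, 18.6 and 28.1 FPKM in males.

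Sfrp2 was higher in Cav1-KO than in Control in normoxia by a log2 fold change of 1.57 (SE 0.15, adjusted p = 0.00013, edgeR), which is 2.98-fold. It was called without each of the 11 libraries in turn (1.51 to 1.68) and with the list term (1.53, adjusted p = 8.7e-07), and without the listed library the value was 1.56 (adjusted p = 0.00015). Males gave 1.60 (SE 0.16, adjusted p = 0.0020) and females 1.55 (SE 0.24, adjusted p = 0.098), and the females were called by DESeq2 (1.55), with the list term (1.44) and without the listed library (1.5). The difference between the sexes was -0.04 (SE 0.29). In hypoxia Cav1-KO exceeded Control by 0.68 (SE 0.17, adjusted p = 0.027), under the fold threshold. The female value there was 0.90 (SE 0.23, adjusted p = 0.089), and it was called with the list term (1.17, adjusted p = 0.013), while the male value was 0.47 (SE 0.23, adjusted p = 0.30). Over the same normoxic comparison, 8 smooth muscle markers, with Acta2 the most abundant and none at 0, summed to 170 to 349 FPKM in Control and 143 to 167 FPKM in Cav1-KO, with none of the 8 called. Of 7 club and ciliated cell markers 5 were called lower in Cav1-KO, and of 10 T cell markers 4, with T cell sums of 29.8 to 49.1 FPKM in Control and 17.0 to 29.5 FPKM in Cav1-KO. Their part in the Sfrp2 difference was not tested.

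In Cav1-RC, Sfrp2 exceeded Control in hypoxia by 1.75 (SE 0.18, adjusted p = 0.00057), which is 3.37-fold, with no overlap between the 6 libraries of each. This held without each library in turn (1.63 to 1.85), with the list term (1.49, adjusted p = 0.0001) and without male Control hypoxia replicate 2 (1.85). Males gave 1.80 (SE 0.22, adjusted p = 0.0010) and females 1.71 (SE 0.25, adjusted p = 0.035), and the female call held without female Control hypoxia replicate 1 only and was lost without any other of the 6 libraries (1.49 to 1.90). Beside this, 4 of the 8 smooth muscle markers were called lower and 4 of 9 cardiac muscle and 2 of 7 erythroid markers higher in Cav1-RC than in Control in hypoxia, and their part was not tested. In normoxia Cav1-RC exceeded Control by 0.92 (SE 0.16, adjusted p = 0.0096), under the fold threshold, and it passed without male Control normoxia replicate 2 (1.00), female Control normoxia replicate 2 (1.01) or the listed female Cav1-RC library (1.01). Males alone were called at 1.08 (SE 0.16, adjusted p = 0.011), and the call was lost without male Control normoxia replicate 3 (0.94), male Cav1-RC normoxia replicate 1 (1.07) or replicate 2 (1.08), and without the 2 last-named libraries together, whose Xist goes against their label (1.06, adjusted p = 0.42).

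Against Cav1-KO, Sfrp2 in Cav1-RC was lower in normoxia, at -0.67 (SE 0.10, adjusted p = 0.0022), and higher in hypoxia, at 1.05 (SE 0.18, adjusted p = 0.00047). The hypoxic call was lost without male Cav1-RC replicate 3 (0.94), female Cav1-RC replicate 3 (0.94), female Cav1-KO replicate 2 (0.98) or male Cav1-KO replicate 1 (0.95), and with the list term the value was 0.67 with an adjusted p of 0.11. In males it was 1.31 (SE 0.23, adjusted p = 0.0022) and with the list term 0.93 (adjusted p = 0.081), and in females 0.79 (SE 0.24, adjusted p = 0.049). Hypoxia itself raised Sfrp2 in Cav1-RC by 1.03 (SE 0.17, adjusted p = 0.013), with all 6 hypoxic libraries above all 5 normoxic ones. The value fell under the fold threshold without female Cav1-RC normoxia replicate 1 (0.94), male Cav1-RC hypoxia replicate 3 (0.91) or female Cav1-RC hypoxia replicate 3 (0.93), and with the list term (0.94), and without the libraries of high Xist it was 1.05 with an adjusted p of 0.18. In Cav1-KO males hypoxia lowered Sfrp2 by a log2 fold change of -1.25 (SE 0.17, adjusted p = 0.00043) and with the list term this was -0.87 (adjusted p = 0.21). All 3 of these hypoxic libraries and none of the normoxic ones are listed. Cav1-KO females were at -0.15 (SE 0.19, adjusted p = 0.56). The difference between the sexes, 1.10 (SE 0.29), had an adjusted p of 0.50 in edgeR, where 0.00% of all genes passed. With no filter on low counts the adjusted p was 2.4e-06, but the share of all genes passing under that setting is not given.

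Sfrp1, the closest relative of Sfrp2 among these genes in its Frizzled-like domain, was not called in any of the 27 comparisons of 2 groups, single-sex or over both sexes. In hypoxia it was 2.92 to 6.89 FPKM in Cav1-KO, 5.47 to 9.21 FPKM in Cav1-RC and 5.43 to 10.1 FPKM in Control, with overlap between all pairs. Cav1-RC exceeded Cav1-KO by 0.72 (SE 0.17, adjusted p = 0.0029) and Cav1-KO was below Control by -0.61 (SE 0.16, adjusted p = 0.031), both under the fold threshold. Under the list term they were 0.40 (adjusted p = 0.35) and -0.49 (adjusted p = 0.047).

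FRZB, also known as SFRP3, binds Wnt ligands too. Its gene was read at so few counts that it passed the low-count filter in 6 of the 9 comparisons over both sexes and was not tested in the other 3. In hypoxia the counts were 2, 1 and 0 in the male Cav1-KO libraries, 8, 14 and 9 in the female Cav1-KO libraries, 12, 19 and 15 in the male Cav1-RC libraries and 8, 17 and 34 in the female Cav1-RC libraries. Scaled to depth, all 6 Cav1-RC libraries (0.181 to 0.450 FPKM) lay above all 6 Cav1-KO libraries (0 to 0.178 FPKM). The log2 fold change over both sexes was 2.67 (SE 0.41, adjusted p = 0.0002), called without each library in turn (2.38 to 3.00), and 1.97 (adjusted p = 0.13) with the list term. Since the male Cav1-KO libraries held 3 counts together, the male difference is given as a ratio of counts per total count, 22 (95% exact interval 7.08 to 111, counting error only). Against Control in hypoxia Frzb was higher in Cav1-RC by 1.57 (SE 0.41, adjusted p = 0.035), with overlapping libraries. That call held without male Control replicate 2, female Control replicate 3 or female Cav1-RC replicate 1 and was lost without any other of the 12 libraries (1.37 to 1.65), and the list term gave 1.10 (adjusted p = 0.28).

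WIF1, a secreted protein that captures Wnt ligands through its WIF domain, went the other way. In hypoxia Wif1 was 5.29, 3.05 and 3.45 FPKM in female and 2.85, 4.39 and 4.0 FPKM in male Cav1-KO libraries, against 1.75, 1.42 and 1.68 FPKM in female and 1.84, 1.18 and 2.08 FPKM in male Cav1-RC libraries. The 2 genotypes did not overlap, while hypoxic Control libraries reached from 1.74 to 3.68 FPKM and overlapped both. Cav1-RC was lower than Cav1-KO by a log2 fold change of -1.21 (SE 0.19, adjusted p = 0.00028), called without each library in turn (-1.30 to -1.09). The list term gave -0.60 (adjusted p = 0.27). Females gave -1.29 (SE 0.27, adjusted p = 0.015), lost without Cav1-KO replicate 1 (-1.03), and males -1.15 (SE 0.26, adjusted p = 0.0077), lost without Cav1-RC replicate 2 (-0.94). Against Control, hypoxic Cav1-RC was at -0.88 (SE 0.21, adjusted p = 0.029), under the fold threshold except without female Control hypoxia replicate 2 (-1.02). The 7 club and ciliated cell markers, of which Scgb1a1 was by far the most abundant and none was at 0, summed to 75187 to 118137 FPKM in hypoxic Cav1-KO and 45196 to 70902 FPKM in hypoxic Cav1-RC, with 1 of the 7 called lower. Over the 34 libraries the log2 level of Wif1 had a Pearson correlation of 0.74 with this sum, and 0.44 over the 22 libraries outside the western blot list. Other lists lay further from 0 over the 22 libraries, with 0.59 for cardiac muscle, 0.51 for smooth muscle and -0.51 for alveolar type 1 markers. Over the 34 libraries these were -0.36, 0.53 and -0.49. All are descriptions across libraries that share genotype and list. The part of these lists in the Wif1 difference was not tested.

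**Figure D3:**
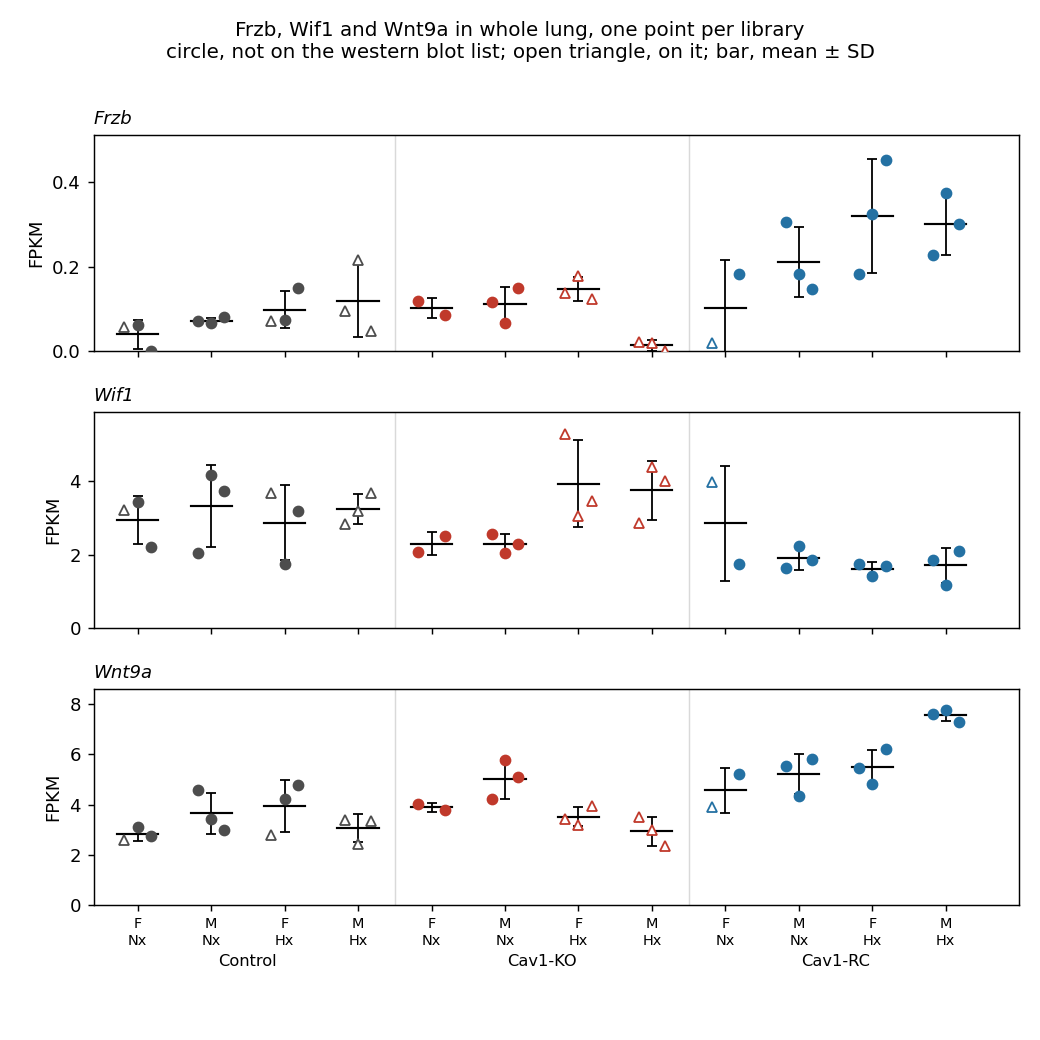
Frzb, Wif1 and Wnt9a in FPKM (vertical axes, from 0, so that error bars reaching below 0 are cut there) for each library, by genotype, sex (F, M) and oxygen (Nx, Hx), with circles and open triangles for libraries outside and on the western blot list and bars for mean ± SD. Wnt9a is highest in hypoxic Cav1-RC males (7.31 to 7.76 FPKM), and Frzb lies near 0 in hypoxic Cav1-KO males.

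WNT9A is a ligand of the canonical branch, known from joint and blood stem cell formation. Its gene lies at chr11:59306928-59333552. Wnt9a stood at 7.60, 7.76 and 7.31 FPKM in the hypoxic Cav1-RC males, above every other library of the series. Hypoxic Cav1-RC females had 5.44, 4.81 and 6.21 FPKM, hypoxic Cav1-KO libraries 3.43, 3.19 and 3.94 FPKM in females and 3.5, 2.99 and 2.33 FPKM in males, and hypoxic Control libraries 2.77, 4.23 and 4.78 FPKM in females and 3.39, 2.44 and 3.36 FPKM in males. All 6 hypoxic Cav1-RC libraries thus lay above the 12 hypoxic libraries of the other genotypes. Against Cav1-KO the log2 fold change was 0.99 (SE 0.12, adjusted p = 3.6e-05), just under the fold threshold, which it passed without 6 of the 12 libraries (up to 1.06), and 0.57 (adjusted p = 0.080) with the list term. Against Control it was 0.89 (SE 0.15, adjusted p = 0.0066) and with the list term 0.60 (adjusted p = 0.024). Males passed both thresholds, at 1.34 (SE 0.16, adjusted p = 0.00049) against Cav1-KO and 1.28 (SE 0.15, adjusted p = 0.00084) against Control, each whichever library was left out, whereas the list term gave 0.93 (adjusted p = 0.025) and 0.84 (adjusted p = 0.097). Females were at 0.63 (SE 0.18, adjusted p = 0.038) and 0.50 (SE 0.24, adjusted p = 0.69), and the differences between the sexes, -0.73 (SE 0.23) and -0.79 (SE 0.29), had adjusted p of 1 and 0.21, and the latter was 0.012 without female Control hypoxia replicate 1 (-0.98).

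WNT5A is the best known ligand of the branches without beta-catenin and is expressed by lung mesenchyme. Normoxic Cav1-KO libraries had 3.44 to 4.46 FPKM of Wnt5a, all above the 6 normoxic Control libraries at 1.91 to 3.22 FPKM, a log2 fold change of 0.50 (SE 0.13, adjusted p = 0.034). Hypoxic Cav1-KO libraries had 2.15 to 3.02 FPKM, all below the normoxic ones, a change of -0.63 (SE 0.07, adjusted p = 1.4e-05) that was -0.18 (adjusted p = 0.65) with the list term. Neither passed the fold threshold. The 14 fibroblast markers summed to 1464 to 1754 FPKM in normoxic and 940 to 1228 FPKM in hypoxic Cav1-KO. Under hypoxia 5 of them were called lower and 1 higher in Cav1-KO females (13.3% of all genes called). In Cav1-KO males 8 were called lower and 0 higher (17.7%). The part of this list in the Wnt5a and Sfrp2 changes was not tested. In the other comparisons over both sexes Wnt5a lay between -0.19 and 0.40.

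AXIN2 is a scaffold of the beta-catenin destruction complex and a widely used readout of canonical signaling, because its own gene is a direct target. Axin2 was not called in any comparison. Its 6 condition means with SD were 6.98 ± 1.29 (n = 6) in Control normoxia, 6.59 ± 0.81 (n = 6) in Control hypoxia, 8.08 ± 1.01 (n = 5) in Cav1-KO normoxia, 6.91 ± 0.60 (n = 6) in Cav1-KO hypoxia, 7.06 ± 0.90 (n = 5) in Cav1-RC normoxia and 5.80 ± 0.31 (n = 6) in Cav1-RC hypoxia, all in FPKM. Over both sexes its log2 fold changes lay between -0.29 and 0.20. The only 2 that passed the adjusted p were -0.26 (SE 0.07, adjusted p = 0.0097) for Cav1-RC against Cav1-KO in hypoxia and -0.24 (SE 0.09, adjusted p = 0.039) for hypoxia against normoxia in Cav1-KO. In the group order no neighbouring pair of Axin2 groups was without overlap.

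LEF1 is a transcription factor that beta-catenin works through, and its gene is itself a target. Lef1 had its lowest condition mean in hypoxic Cav1-RC lungs, with 1.17, 1.11 and 0.795 FPKM in females and 1.07, 0.60 and 0.760 FPKM in males. Normoxic Cav1-RC libraries had 1.36 to 1.56 FPKM, all above the hypoxic ones, with a log2 fold change under hypoxia of -0.69 (SE 0.17, adjusted p = 0.059) and of -0.64 (adjusted p = 0.031) with the list term. Hypoxic Cav1-KO libraries had 0.959 to 1.56 FPKM and overlapped Cav1-RC, which was lower by -0.49 (SE 0.18, adjusted p = 0.037), or -0.27 (adjusted p = 0.58) with the list term. Lef1 was not called in any of the 27 comparisons, single-sex or over both sexes.

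**Figure D4:**
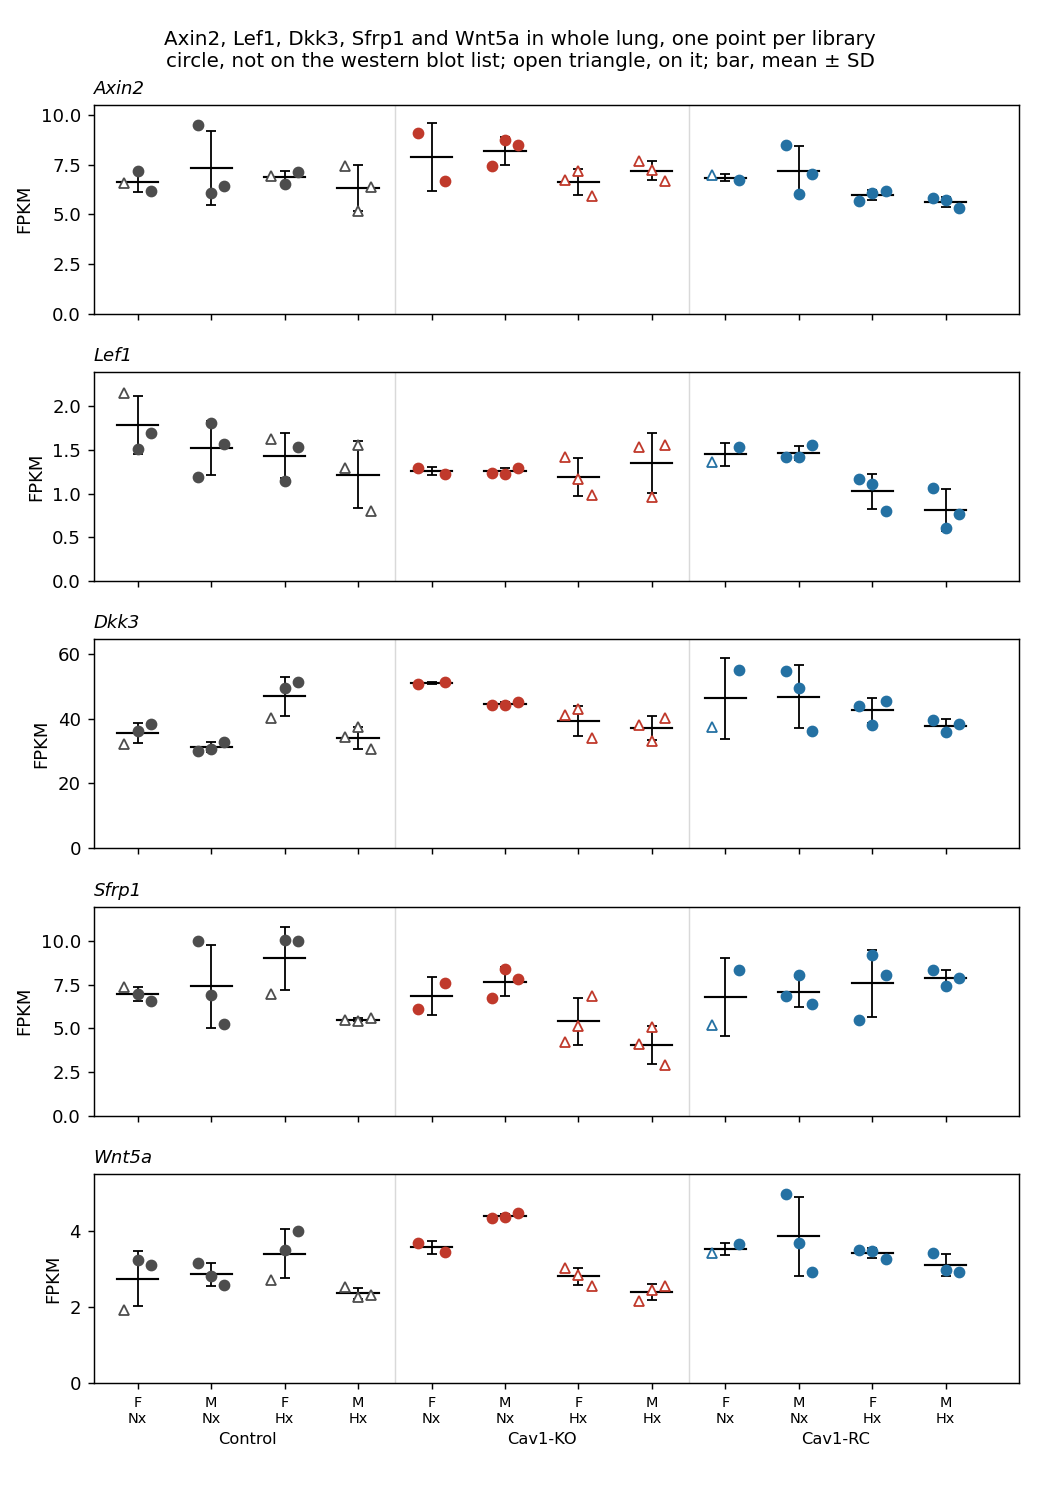
Dkk3, Sfrp1, Wnt5a, Axin2 and Lef1 in FPKM (vertical axes, from 0) for each library, by genotype, sex (F, M) and oxygen (Nx, Hx), with circles and open triangles for libraries outside and on the western blot list and bars for mean ± SD. Groups overlap in most panels, and the 5 normoxic Cav1-KO libraries of Dkk3 (44.1 to 51.3 FPKM) lie above the 6 normoxic Control libraries (29.9 to 38.3 FPKM).

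Within single sexes, with 2 or 3 libraries a group, 0 to 2 of the genes were called in each female comparison and 0 to 5 in each male one. Cav1-KO against Control called none in normoxic females (0.122% of all genes called, 2 of the 9 tested at an unadjusted p under 0.05), Dkk2 and Sfrp2 in normoxic males (5.0%), none in hypoxic females (0.768%, 3 of 10 unadjusted) and none in hypoxic males (0.929%, 1 of 9 unadjusted). Cav1-RC against Cav1-KO called none in normoxic females (0.10%, 1 of 9 unadjusted), none in normoxic males (3.59%, 2 of 9 unadjusted), Dkk2 and Wif1 in hypoxic females (8.98%) and Dkk2, Sfrp2, Frzb, Wif1 and Wnt9a in hypoxic males (14.8%). Cav1-RC against Control called none in normoxic females (0.137%, 2 of 9 unadjusted), Sfrp2 in normoxic males (2.45%), Sfrp2 in hypoxic females (0.832%) and Dkk2, Sfrp2 and Wnt9a in hypoxic males (9.9%). Hypoxia against normoxia called none in Control females (0.0175%, 0 of 9 unadjusted), Dkk2 in Control males (6.36%), none in Cav1-KO females (13.3%, 4 of 9 unadjusted), Sfrp2 in Cav1-KO males (17.7%), none in Cav1-RC females (0.0285%, 1 of 10 unadjusted) and none in Cav1-RC males (2.27%, 4 of 10 unadjusted). DESeq2 called 1 gene each in 4 of the comparisons where edgeR called none, Sfrp2 in normoxic and Dkk2 in hypoxic females for Cav1-KO against Control, and Dkk2 in Cav1-KO females and Sfrp2 in Cav1-RC females for hypoxia against normoxia, and as many as edgeR in the others. The female and male fold changes differed for none of the genes in edgeR, in 9 tests of the sex difference in which 0.00% of all genes were called. At an unadjusted p under 0.05, 0 to 3 of the genes passed in each of these tests, and DESeq2 called none. The 3 male-labelled libraries with high Xist and Y-gene sums at the female level enter these male groups. They are male Cav1-RC normoxia replicates 1 and 2 and male Control hypoxia replicate 2. Tests with these 2 groups therefore do not cleanly separate the sexes. Between oxygen levels, the genotype difference changed at an adjusted p under 0.05 for 3 of the 10 genes in Cav1-KO against Control (20.2% of all genes), for 8 in Cav1-RC against Cav1-KO (42.8%, and 0 with 0.0151% under the list term) and for 0 in Cav1-RC against Control (0.114%, 3 of 10 unadjusted), by edgeR, where DESeq2 called 5, 8 and 0. With the list term, the last of these called 2, Dkk3 (-0.74, adjusted p = 0.0055) and Wnt5a (-0.57, adjusted p = 0.039), against 10.5% of all genes.

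**Figure D5:**
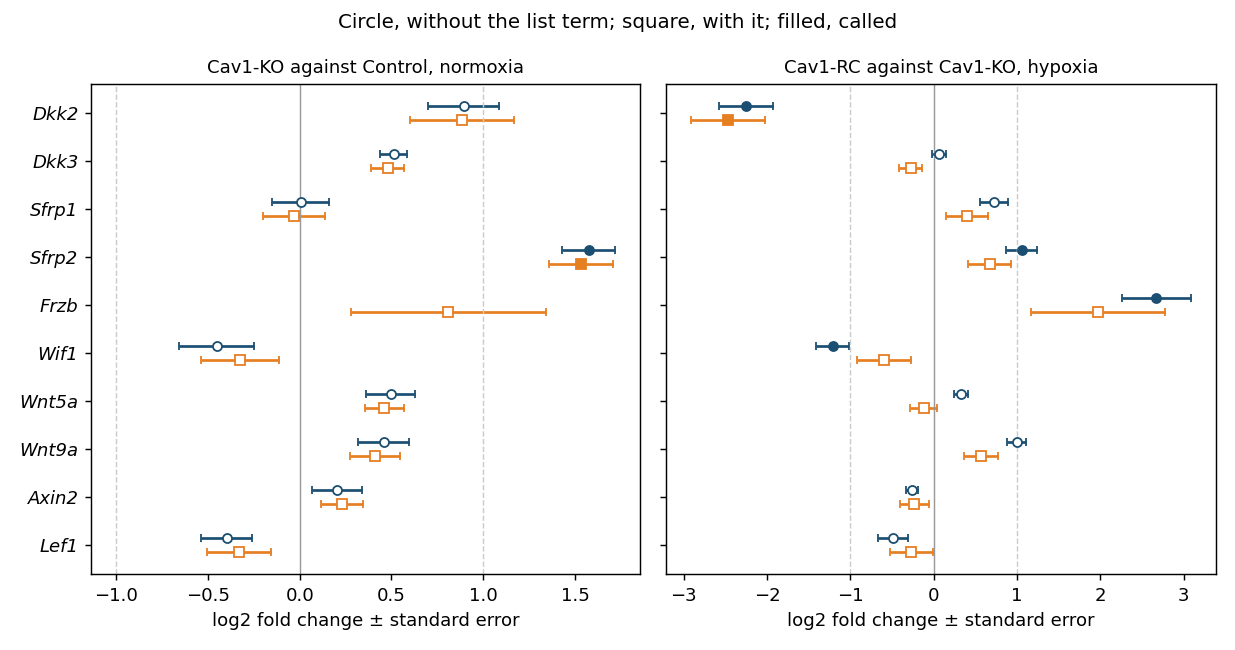
Log2 fold change ± standard error (horizontal axes) of each gene in Cav1-KO against Control in normoxia and in Cav1-RC against Cav1-KO in hypoxia, over both sexes, without the western blot list term (circles) and with it (squares), filled where called. In hypoxia Dkk2 stays called with the term (-2.47), while Sfrp2 (0.67), Frzb (1.97) and Wif1 (-0.60) do not.

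Of 96 other genes of the pathway, 80 to 85 were tested in each of these comparisons. In normoxia, Cav1-KO against Control called 2 higher and 4 lower of 83 tested, where 5.78% of all genes were called, with a median log2 fold change of 0.18 against -0.03 over all genes. The ligand gene Wnt9b was higher by 3.21 (SE 0.39, adjusted p = 0.00063), from 335 counts in 5 Cav1-KO libraries and 50 counts in 6 Control libraries. The ligand genes Wnt11 (-1.21) and Wnt10b (-1.30), the R-spondin gene Rspo3 (-1.10, adjusted p = 0.011), whose product amplifies Wnt signals, and the Dickkopf receptor gene Kremen2 (-2.38, adjusted p = 0.0067) were lower. The surface inhibitor gene Apcdd1 was higher by 1.16 (adjusted p = 0.043). With the list term 5 of these 6 were called, Apcdd1 being at 0.98. In hypoxia, 1 was higher and 8 were lower of 85, against 4.14% of all genes called, with a median of -0.33 against 0.01. Wnt9b was again higher (3.17, adjusted p = 0.00022), from 946 counts in Cav1-KO and 87 in Control. The lowest fold change was that of Sost, the gene of the LRP-binding inhibitor sclerostin, at -4.36 (SE 0.72, adjusted p = 0.0052), from 15 counts in the 6 Cav1-KO libraries and 240 counts in the 6 Control libraries. Rspo3 (-1.31) and Wnt10b (-1.07) were lower here as well, and these 4 were also called with the list term. Wnt9b is not Wnt9a, and the Wnt9a values in these comparisons were 0.46 and -0.12, neither called.

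Cav1-RC against Cav1-KO called 0 higher and 2 lower of 82 other Wnt genes in normoxia, Wnt9b at -2.21 (SE 0.26, adjusted p = 0.00074) and the target gene Sp5 at -1.03 (adjusted p = 0.021), against 4.28% of all genes called. Wnt9b was called with the list term as well (-1.98) and Sp5 was not (-0.98, adjusted p = 0.12). In hypoxia it called 11 higher and 2 lower of 80, against 14.7% of all genes, with a median of 0.36 against 0.00 over all genes, among them the receptor gene Fzd1 (1.98), the ligand gene Wnt3a (1.42) and the target gene Ccnd1 (1.46), which encodes cyclin D1. With the list term these 3 were at 0.36, 0.51 and 0.16, and 3 of all 96 other Wnt genes were called, against 3.45% of all genes. In normoxia, 0 of 83 were called higher and 3 lower in Cav1-RC than in Control, against 2.28% of all genes, Kremen2 (-4.0, from 8 counts in 5 libraries against 130 in 6), Wnt10b (-1.22) and Rspo3 (-1.02), all 3 also called with the list term. In hypoxia 2 were higher and 2 lower of 82, against 3.73% of all genes, among them Sost at -2.91 (SE 0.56, adjusted p = 0.013) and Wnt10b at -1.35. Of these 4, Sost alone was called with the list term (-2.90, adjusted p = 0.017), and Wnt10b fell just under the fold threshold (adjusted p = 0.012). Hypoxia against normoxia called 0 of 82 in Control and 0 of 81 in Cav1-RC by edgeR and by DESeq2. By edgeR 0.846% and 1.22% of all genes were called. Of the other Wnt genes 9 and 17 were at an unadjusted p under 0.05, and 1 was called in each with the list term. The shares of all genes for these last counts are not given. It called 0 higher and 17 lower of 81 in Cav1-KO, against 17.6% of all genes, with Ptk7 (-1.25), Fzd1 (-2.59) and Tspan12 (-1.74) the receptor genes of smallest adjusted p. With the list term 1 of all 96 was called, the ligand gene Wnt6 (-2.61, adjusted p = 0.036). The share of all genes called with the term is not given. Wnt6 had 29 counts in the 6 hypoxic Cav1-KO libraries (1 to 9 each) and 79 in the 5 normoxic ones (4 to 40 each). The 6 hypoxic Cav1-KO libraries are all listed while no normoxic one is.

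By correlation of log2 CPM over the 34 libraries, among 19869 genes, those most like Dkk2 were Bpifa2 (Pearson r 0.77), Nts (0.76), 6820402A03Rik (0.76), Gria4 (0.75) and Gper1 (0.75). Over the 22 libraries outside the western blot list their r was 0.60, 0.48, 0.69, 0.77 and 0.82, and the 5 genes most like Dkk2 there were others, led by Pcdhb11 (0.86) and Tmem2 (0.86). Among the 10 genes themselves, Sfrp2, Frzb and Wnt9a varied together, with r of 0.67 for Sfrp2 and Frzb, 0.69 for Sfrp2 and Wnt9a and 0.68 for Frzb and Wnt9a, and Wif1 varied against Wnt9a (-0.75). Over the 22 libraries these were 0.73, 0.69, 0.78 and -0.69. Dkk3 and Wnt5a had an r of 0.70, and 0.71 over the 22 libraries. Dkk2 had an r of -0.06 with Sfrp2. These correlations run over libraries that share genotype, oxygen level and the list, and they are descriptions.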

How the data were processed

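RNA of whole lungs was sequenced from 34 mice with a group label and 1 whose label calls its identity uncertain (not grouped), on a directional library protocol. Per the study's methods the authors aligned reads to mm10 with HISAT2 2.0.5 and counted them per gene with featureCounts 1.5.0-p3, and whether counting used strand is not given in the sources used here. The labels give all libraries the same batch. The authors deposited raw counts and FPKM values per gene and library. Members, gene lists and marker lists were chosen with earlier results of these data known.

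Counts were tested with edgeR 4.0.16 in R 4.3.3 (TMM scaling, filterByExpr, quasi-likelihood test, Benjamini-Hochberg adjustment over all genes tested, 16981 to 19538), using the libraries of the groups compared. This was done in 18 comparisons within 1 sex, 9 over both sexes, 9 of the difference between sexes and 3 of the difference between oxygen levels, and the last 12 were called on the adjusted p alone. Levels are FPKM. Correlations used log2 CPM with a prior count of 2. The alternatives were DESeq2 1.42.0, other size factors, no filter, no fold threshold, limma 3.58.1 on log2(FPKM + 1) or log2(FPKM + 0.1), the list term, a replicate block and leaving libraries out. Replicates are separately numbered libraries, and p-values measure the spread between these libraries, which may be partly technical. Intervals of counts are exact and cover counting error only. The fitting scripts were tested on simulated data.

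Genes were named by rule: the 10 genes in each comparison, Cav1, up to 3 called genes of smallest adjusted p per other Wnt list and comparison, the 5 genes of highest correlation with Dkk2, and the most abundant markers of a cell list. The low-count totals of Sost, Kremen2, Wnt9b and Wnt6 were added after their values were seen.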

Additional observations from a re-analysis of the deposited data

Results flagged for a closer look

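The difference between Cav1-KO and Control was not the same at both oxygen levels for 3 of the 10 genes, in a test of hypoxia minus normoxia at which 20.2% of all genes passed an adjusted p of 0.05 (edgeR). The values on the log2 scale were -0.61 (SE 0.12, adjusted p = 0.0061) for Dkk3, -0.91 (SE 0.24, adjusted p = 0.016) for Sfrp2 and -0.66 (SE 0.17, adjusted p = 0.017) for Wnt5a. With the list term they were -0.44, -0.71 and -0.45, with adjusted p of 0.057, 0.11 and 0.094.

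The difference between Cav1-RC and Cav1-KO was not the same at both oxygen levels for 8 of the 10 genes, where 42.8% of all genes passed and, with the list term, 0.0151%. It was -1.31 (SE 0.45, adjusted p = 0.027) for Dkk2, 1.73 (SE 0.23, adjusted p = 0.00014) for Sfrp2 and 2.19 (SE 0.66, adjusted p = 0.012) for Frzb. For Sfrp1 it was 0.79 (SE 0.23, adjusted p = 0.011), for Wif1 -1.22 (SE 0.30, adjusted p = 0.0036) and for Lef1 -0.70 (SE 0.23, adjusted p = 0.018). The ligand genes were at 0.43 (SE 0.15, adjusted p = 0.027) for Wnt5a and 0.86 (SE 0.18, adjusted p = 0.0011) for Wnt9a. None of the 8 passed with the list term, where Sfrp2 was at 1.27 (adjusted p = 0.14), Dkk2 at -1.55 (adjusted p = 0.25) and Wnt5a at -0.12 (adjusted p = 0.89). All 6 hypoxic and none of the 5 normoxic Cav1-KO libraries are on the western blot list.

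One library, whose label calls its identity uncertain and names a female normoxic Cav1-KO lung only as a possibility, was given no group and entered no comparison. Its animal number is on the western blot list, which gives that number as a female normoxic Cav1-KO mouse. None of the 5 normoxic Cav1-KO libraries is on the list. Its Dkk2 level was 0.866 FPKM and its Sfrp2 level 13.5 FPKM, both above each of the 12 Control libraries, with Cav1 at 1.34 FPKM and 30930450 counts in all. Beside the 5 normoxic Cav1-KO libraries its Dkk2 level lay within their range (0.606 to 0.888 FPKM) and its Sfrp2 level below it (17.9 to 22 FPKM).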

How the results depend on the processing

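Over both sexes, Cav1-KO against Control called 2 of the genes counted over both oxygen levels, and 7 without the fold threshold, 1 with each of the 3 limma fits on FPKM, 1 without the high-Xist libraries, 1 with the replicate block, 0 among listed libraries and 1 to 3 without each library in turn. Cav1-RC against Cav1-KO called 4, and 10 without the fold threshold, 0 with limma on log2(FPKM + 1) with or without a filter, 1 with the list term and 3 to 5 without each library. Cav1-RC against Control called 3, and 6 without the fold threshold, 1 with each limma fit and 2 to 4 without each library. Hypoxia against normoxia called 1, and 8 without the fold threshold, 0 with each limma fit, the list term, the replicate block, without listed and without high-Xist libraries, and 0 to 1 without each library. Within sexes Cav1-KO against Control called 2, and 4 by DESeq2, with no filter and with no fold threshold, 1 with each limma fit, 6 with the list term and 1 to 3 without each library. Cav1-RC against Cav1-KO called 7, and 14 with no fold threshold, 3 with limma on log2(FPKM + 1) with or without a filter, 3 with the list term and 6 to 9 without each library. Cav1-RC against Control called 5, and 8 with no fold threshold, 2 with limma on log2(FPKM + 1) with or without a filter, 3 on log2(FPKM + 0.1), 3 with the list term and 4 to 6 without each library. Hypoxia against normoxia called 2, and 4 by DESeq2 and in 1 fit over all 34 libraries, 5 with no filter, 11 with no fold threshold, 1 with each limma fit and with the list term, and 1 to 3 without each library. The share of all genes called is not given for each of these settings, so the counts describe shifts in the calls only. Without the fold threshold that share was 61.7% for hypoxia against normoxia in Cav1-KO over both sexes. The pseudocount shrinks fold changes of low genes, and the cause of the other shifts was not tested. The Wnt5a difference between oxygen levels in Cav1-RC against Cav1-KO, 0.43, reversed to -0.12 with the list term.

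Replicate numbers were not treated as pairs in the main tests. Same-numbered libraries correlated between -0.213 and 0.633 in their deviations from the group means. Only in Cav1-RC against Control in normoxic females were all such correlations above 0.1 (0.219 to 0.633). With the replicate block Dkk2 lost its call in normoxic males for Cav1-KO against Control (1.18, adjusted p = 0.055), over both sexes in hypoxia (0.97, adjusted p = 0.055) and in Control males for hypoxia against normoxia (1.22, adjusted p = 0.070). Frzb lost its call for Cav1-RC against Control in hypoxia (1.52, adjusted p = 0.051) and Sfrp2 its call for hypoxia against normoxia in Cav1-RC (0.93). Sfrp2 gained a call in normoxic females for Cav1-KO against Control (1.42) and in Cav1-RC females for hypoxia against normoxia (1.23).

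Depth limits Frzb most, at 0 to 34 counts a library, and Dkk2 next, at 7 to 171.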

Other observations

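In the library of uncertain identity the other genes stood at 43.0 FPKM for Dkk3, 4.29 FPKM for Sfrp1, 0.0522 FPKM (5 counts) for Frzb, 4.13 FPKM for Wif1, 6.36 FPKM for Axin2, 1.28 FPKM for Lef1, 2.82 FPKM for Wnt5a and 2.89 FPKM for Wnt9a. Its Sfrp1 level lay below each of the 12 Control libraries, which ran from 5.28 to 10.1 FPKM on Sfrp1 in normoxia and 5.43 to 10.1 FPKM in hypoxia. Of the 10 genes, 7 lay below the range of the 5 normoxic Cav1-KO libraries, among them Wnt5a (3.44 to 4.46 FPKM there), 2 within it and 1, Wif1, above it (2.05 to 2.55 FPKM there). The uncertain library is on the western blot list and those 5 are not, and the part of the list in these differences was not tested.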
